A study of Lepidium sativum with 30 samples.

Results

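The transcripts that rose and fell when garden cress seeds first took up water were followed by comparing 5 libraries of dry seeds (DS) with 5 libraries of seeds imbibed for 6 h in control solution (C6). These 10 libraries, out of 30 in the series, were chosen by their labels: the columns of the count table that belong to dry seed and to control imbibition at 6 h. The series also holds control seeds at 12 h and seeds treated with 0.5 mM myrigalone A (MyA), a dihydrochalcone that delays germination, and neither C6 nor DS received it. All seeds were Lepidium sativum FR14 "Keimsprossen", used whole, so that embryo, endosperm and seed coat were extracted together. C6 seeds were kept at 20 °C in continuous light, and DS seeds were not imbibed. The study states that its controls received the basal solvent, which for MyA was DMSO, though it also calls these controls water. DS seeds received neither, so solvent and imbibition are not separated in this comparison. Poly(A) RNA was sequenced and reads were counted on 48306 assembled contigs (transcript fragments). The study calls its replicates biological, and the labels do not say what separates them (seed lot, imbibition or extraction), so the p-values cover the variation among these 10 libraries.

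A mature dry seed keeps messenger RNA from its last days on the mother plant, among it transcripts for dehydrins, late embryogenesis abundant (LEA) proteins, seed storage functions and the tonoplast aquaporin TIP3;1, many of them under abscisic acid (ABA) control through factors such as ABI3 and ABI5. Water uptake restarts respiration, translation and transcription, and the balance moves from ABA towards gibberellin, which promotes embryo growth and weakening of the endosperm in front of the radicle. Changes in whole seeds are changes in the share of the sequenced RNA, and fewer cells of a type and less RNA per cell cannot be told apart.

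Library totals ranged from 20218374 to 30984998 counts in DS and from 26779336 to 31655333 in C6. The 22155 contigs that passed a filter of 5 CPM (counts scaled to library size) in 4 libraries of the series held between 97.7% and 98.5% of the counts of each library. Levels below are CPM scaled by edgeR's TMM factors, which are not corrected for contig length, so levels of different contigs are not compared with each other. TMM factors were 0.800 to 0.901 in DS and 1.15 to 1.24 in C6, with no overlap. The median contig varied between libraries with a coefficient of variation of 0.145 in DS and 0.182 in C6. TIP3;1, a marker of the seed's protein storage vacuoles, was found in each of the 5 dry libraries, at 31.1 to 68.6 CPM.

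On the TMM scale, about as many contigs were called higher as lower in the first 6 h. TMM takes most contigs as unchanged, so it tends to set this balance itself. Other scalings, given below, put 47.1% to 81.9% of the calls higher. A contig was called when edgeR's quasi-likelihood test gave a Benjamini-Hochberg adjusted p under 0.05 and the change was more than 2-fold. Of 22155 contigs tested, 5869 were called higher at 6 h (26.5%) and 5195 lower (23.4%), so that 49.9% were called in either direction. A further 6677 contigs passed the adjusted p within 2-fold, and 4414 did not pass it. The ranges of the 5 and 5 libraries did not overlap for 8026 contigs that were higher at 6 h and 7525 that were lower, together 70.2% of those tested. The median change over all tested contigs was 0.04 on the log2 scale, with quartiles of -0.97 and 1.08.

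The sizes of the changes were not balanced. Rises reached further than falls: the 99th percentile of the log2 change was 4.91 and the 1st percentile -2.79. Beyond 4-fold, 2674 contigs were called higher and 1577 lower (62.9% higher), a balance that moved with the processing, to 2383 and 2663 under TMM factors from contigs outside the set described next, 2664 and 2568 with a replicate block and 5515 and 167 under the arithmetic mean of 3 reference contigs. Beyond 8-fold there were 1186 higher and 156 lower (88.4% higher, and 84.4% to 98.7% under the scalings tried), and beyond 16-fold 525 higher and 36 lower, of which 93.6% were higher. Beyond 64-fold, 77 contigs were higher and 6 lower. Contigs that were scarce in the dry seed and plain at 6 h (under 1 CPM in DS, at least 5 CPM in C6) numbered 454, and those with the reverse pattern 32. The filter also counted the other imbibed groups, which may admit more contigs of the first kind.

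Many of the falls between 2-fold and 8-fold belonged to 1 set of contigs that moved almost in step. The set was chosen by levels in the MyA 18 h libraries. It holds 1975 tested contigs whose level in library 5 was at least 4 times the mean of the other 4. The study left library 5 out of its own analysis. The filter for tested contigs also counted DS, so contigs that passed in dry seed alone could enter, which may admit more falls. In C6 against DS, 1945 contigs of the set were called lower and 3 higher. Their median log2 change was -1.99, with quartiles of -2.04 and -1.93. The set made up 37.4% of all lower calls. It held 4.20% ± 1.05 of the counts in DS (SD, n = 5, range 2.85% to 5.58%) and 1.31% ± 0.615 in C6 (range 0.455% to 2.07%). Outside the set there were 5866 higher and 3250 lower calls, 64.3% higher, with a median log2 change of 0.21. The study states that its differentially expressed contigs without a match in Arabidopsis or Brassica may partly come from contaminating species. Whether this holds for contigs of the set, and what else they have in common, was not tested.

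**Figure D1:**
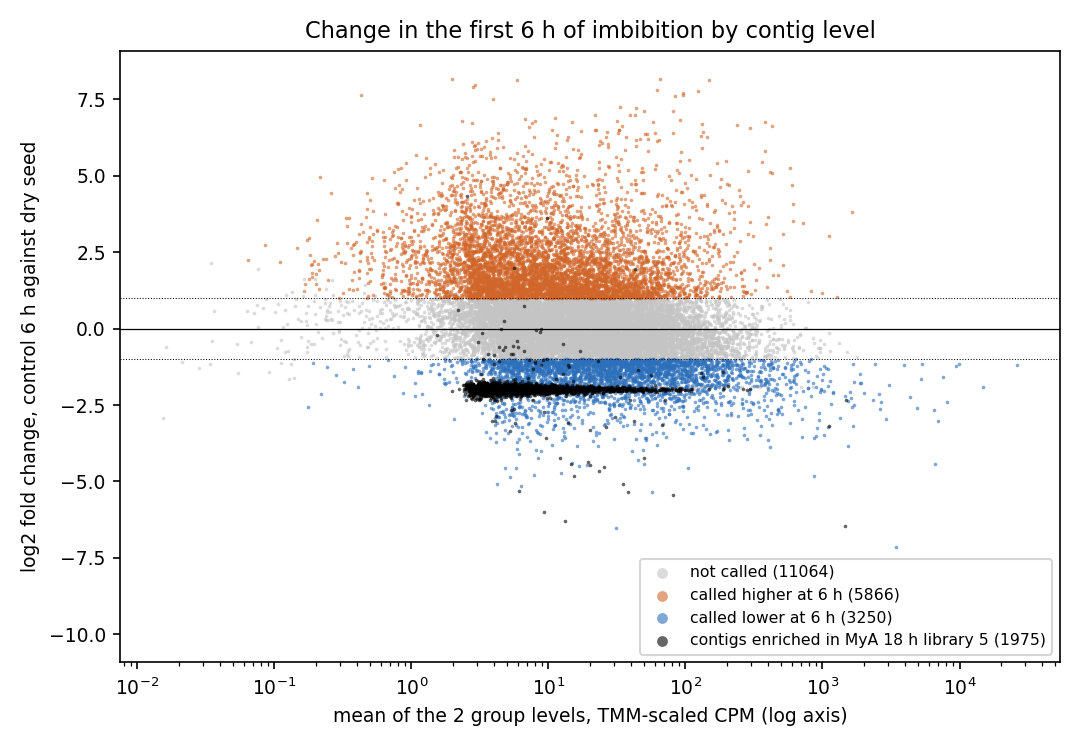
Each point is 1 tested contig: its mean level in the 2 groups in TMM-scaled CPM (log axis) against its log2 fold change at 6 h, with dotted lines at 2-fold. Orange and blue mark higher and lower calls outside the set enriched in MyA 18 h library 5, grey the contigs not called, and black the 1975 contigs of that set, most of which lie in a narrow band around -1.99.

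The direction of change followed the abundance of the contig. Among the 62 tested contigs with a mean of at least 1000 CPM, 53 were called lower and 3 higher, and their median log2 change was -2.05. From 100 to 1000 CPM there were 588 lower and 238 higher calls. From 20 to 100 CPM the calls were near balance, with 1561 lower and 1420 higher, and from 5 to 20 CPM they numbered 2048 and 2224. Below 5 CPM, 945 contigs were lower and 1984 higher, with a median of 0.67. The filter could be passed in imbibed groups alone, and dry seed made up 5 of its 29 libraries. Rises and falls in this lowest class thus did not have an equal chance to enter.

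Counts were thus concentrated on fewer contigs in the dry seed than at 6 h. The 10 most abundant contigs of each library held 12.41%, 11.87%, 15.8%, 15.4% and 12.8% of the counts in DS libraries 1 to 5 and 7.71%, 6.15%, 7.70%, 4.27% and 5.25% in C6 libraries 1 to 5. Every dry library lay above every imbibed one. The means were 13.7% ± 1.82 and 6.22% ± 1.51 (SD, n = 5 each; exact two-sided permutation test, p = 0.00794, the smallest that 5 against 5 libraries allow, adjusted p = 0.0102 over 9 measures). The 100 most abundant contigs held 30.0% ± 2.09 in DS and 15.4% ± 1.75 in C6, and the 1000 most abundant 55.8% ± 1.43 and 40.7% ± 1.5, with the same exact p and again no overlap.

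Counted the other way, 50% of the counts lay on 576 to 768 contigs in the DS libraries and on 1567 to 1809 in the C6 libraries. To reach 90% took 8350 ± 246 contigs in DS and 10659 ± 254 in C6 (SD, n = 5 each), and contigs at 1000 CPM or more, before TMM scaling, fell from 79.0 ± 3.94 to 42.6 ± 2.97 (exact permutation p = 0.00794 for each). Contigs at 5 CPM or more rose from 15494 ± 269 to 17795 ± 319. The number with at least 1 count differed less, 43350 ± 590 against 44290 ± 581 (exact permutation p = 0.0397), and the groups overlapped. That last difference was also computed from the numbers expected in a random (Poisson) draw of 20218374 counts from each library. The exact permutation p was then 0.135. Such a draw drops contigs even from DS library 3, which has that depth (42495 contigs observed, 41122 expected).

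**Figure D2:**
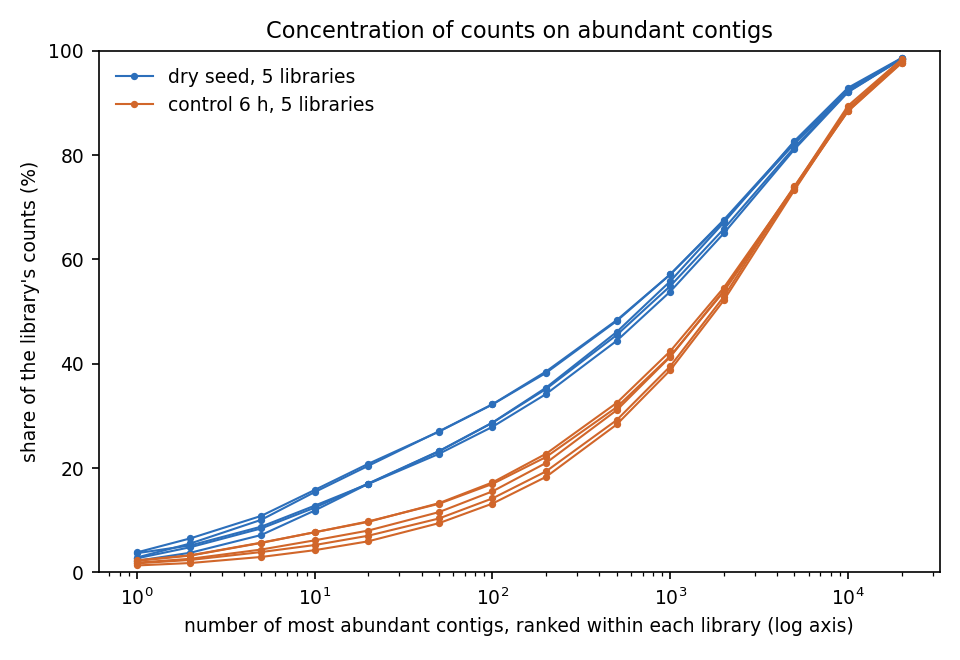
Share of each library's counts in percent, held by its most abundant contigs, against the number of contigs (log axis); blue lines are the 5 dry seed libraries and orange lines the 5 control 6 h libraries. At 100 contigs the dry libraries hold 27.9% to 32.2% and the 6 h libraries 13.2% to 17.3%.

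Between the group means, 36.4% of all counts moved from one contig to another. The loss was narrow and the gain broad: 96 contigs carried 50% of the loss, and 1083 contigs carried 50% of the gain. Contigs called lower held 56.1% ± 1.97 of the counts in DS and 23.2% ± 3.63 in C6. Contigs called higher held 4.60% ± 0.348 in DS and 27.1% ± 2.41 in C6 (SD, n = 5 each). These contigs were chosen by the same change, so the values describe its weight and are not tested.

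Of the 100 most abundant contigs of the dry seed, 95 had a smaller mean share of the counts in C6 and 5 a larger one. On the TMM scale 84 of them were called lower, beside 23.4% of all tested contigs, and none higher. The 16 others also had negative log2 changes. Together the 100 held 29.6% ± 2.21 of the counts in DS and 11.9% ± 2.43 in C6. Of the 100 most abundant in C6, 33 were called higher and 34 lower, beside 26.5% and 23.4% of all tested contigs, and 33 neither. In both lists stood 48 contigs. Ranking by DS favours falls and ranking by C6 favours rises, since the same libraries are compared, so these counts are a description. The sources used here give gene names for 3 of the first 100 and 1 of the second. The most abundant contig of both groups, TC_34630, took 3.06% of the counts in DS and 1.90% in C6, and the next, TC_34636, 1.93% and 0.739%. On the TMM scale TC_34630 fell from 26120 to 47540 CPM in DS to 10760 to 19450 CPM in C6 (log2 change -1.20, SE 0.24), a call lost under library size (-0.69), library size without the top 100 (-0.97) and the references (-0.54 and -0.29), and TC_34636 fell by 1.90 (SE 0.29), a call lost under the arithmetic mean of the references (-0.97). Among contigs without a gene name, the largest gains of level were those of TC_34645, from 208 to 228 CPM in DS to 2195 to 3836 CPM in C6 (log2 change 3.82, SE 0.17), and of TC_42660, from 209 to 267 CPM to 1649 to 2633 CPM (3.01, SE 0.16). In both cases the lowest imbibed library lay far above the highest dry one.

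How many contigs counted as higher or lower depended on the scaling. With library size alone, 8450 contigs were called higher and 3442 lower, 71.1% higher against 53.0% with TMM, and the median log2 change was 0.56. With the geometric mean of 3 contigs that the study used as RT-qPCR references, 9271 were higher and 3133 lower (74.7% higher, median 0.69), and with their arithmetic mean 10812 and 2390 (81.9%, median 0.96). Leaving the 100 most abundant contigs out of the library size gave 6951 and 4237 (62.1%, median 0.28). Upper-quartile factors gave 5972 and 5109, RLE factors 5703 and 5352, and DESeq2 5704 and 5350. When TMM factors were taken from contigs outside the set enriched in MyA 18 h library 5, the balance tipped the other way, to 5183 higher and 5831 lower (47.1% higher, median -0.11).

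**Figure D3:**
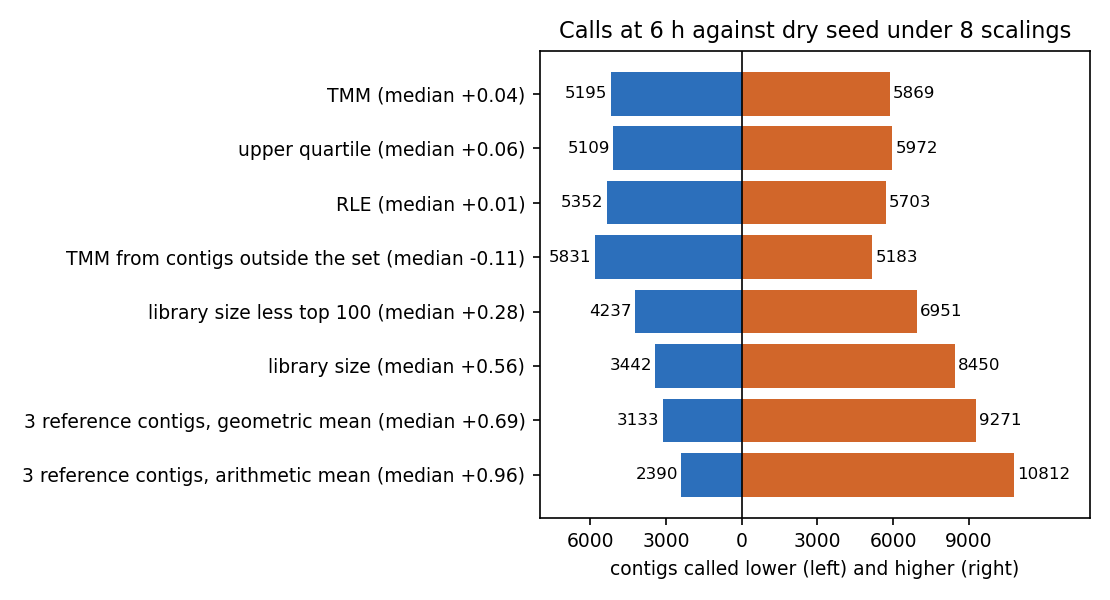
Number of contigs called lower (blue, to the left) and higher (orange, to the right) at 6 h against dry seed under 8 scalings, with the median log2 change of all tested contigs in brackets. The lower calls range from 2390 to 5831 and the higher calls from 5183 to 10812.

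Some patterns held under each of these scalings and some did not. Contigs at 1000 CPM or more stayed mostly lower, with 39 lower and 3 higher calls under the geometric mean of the references and 31 and 3 under the arithmetic mean. The class from 100 to 1000 CPM, mostly lower under TMM, became mostly higher under library size (346 higher, 323 lower) and under the references (399 and 260 by geometric mean, 487 and 160 by arithmetic mean). The set enriched in MyA 18 h library 5 kept at least 1621 lower calls. Changes below are TMM values. Relative to TMM, the median log2 change of all contigs was higher by 0.52 under library size, by 0.65 and 0.92 under the geometric and arithmetic mean of the references and by 0.23 under library size without the top 100, and it was -0.15 away under TMM factors from contigs outside the set.

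The 3 reference contigs themselves were not level. Hobbit, a subunit of the anaphase-promoting complex, was 17.4, 18.9, 17.4, 18.7 and 18.0 CPM in DS and 15.7, 15.2, 14.2, 18.33 and 16.5 CPM in C6, with overlapping ranges (log2 change -0.18, SE 0.09, adjusted p = 0.0957 by edgeR). PP2AA2, a scaffold subunit of protein phosphatase 2A, was 93.8 to 120 CPM in DS and 59.1 to 64.4 in C6 (-0.74, SE 0.08, adjusted p = 8.88e-06), below the 2-fold limit. CAC, a clathrin adaptor subunit, was 294 to 377 CPM in DS and 150 to 177 in C6 (-1.04, SE 0.10, adjusted p = 1.52e-06). That call was lost under library size (-0.52) and without DS library 1, 3 or 4 (-0.97 to -1.0). It was also lost under the references, but CAC is 1 of them, so this is no check of its change. CAC held the most counts of the 3 and so weighs most in their arithmetic mean.

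Gene names come from contig lists, primers and graphs of the study and cover 523 contigs, of which 282 were tested. The contig numbers of 73 of them were read from pictures of graphs, ABI3, ABI5, PIN2, AUX1, ABCB15, GR1, CAT3 and the rising OPR3 contig among them, and could hold reading errors. Most were listed by the study for a response to MyA in these same libraries, so they are neither a random sample of the seed's genes nor independent evidence of direction. Some genes have several contigs, and how reads shared by near-identical copies were counted is not stated, so values of single members of large families are uncertain.

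Of 12 tested desiccation, dehydrin and ABA genes, 4 were called higher and 4 lower, beside 26.5% and 23.4% of all contigs, near the background in both directions, with a median log2 change of 0.18. RAB18, an ABA-responsive dehydrin, was 377, 352, 481, 583 and 657 CPM in DS libraries 1 to 5 and 84.5, 41.9, 50.8, 16.1 and 26.3 CPM in C6 libraries 1 to 5. All imbibed libraries were lower than all dry ones. The fall was 11.2-fold (log2 change -3.48, SE 0.41, adjusted p = 1.15e-05 by edgeR's quasi-likelihood test). TIP3;1 was 34.2, 31.1, 49.3, 54.3 and 68.6 CPM in DS and 14.2, 9.62, 7.71, 3.05 and 4.63 CPM in C6, a 6.07-fold fall (-2.60, SE 0.39, adjusted p = 7.95e-05) without overlap. LEA18, a late embryogenesis abundant protein, was 130, 132, 37.3, 131 and 175 CPM in DS and 10.8, 18.6, 27.2, 6.00 and 4.81 CPM in C6 (-3.17, SE 0.53, adjusted p = 0.000194). Its groups did not overlap, though its lowest dry library and highest imbibed library lay close together, and its contig belongs to the set enriched in MyA 18 h library 5. The fourth faller was a LEA-like gene, AT5G60530 (-1.90).

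ABI3 and ABI5, the transcription factors that drive this programme in the maturing seed, changed in the other direction. ABI3 was 2.99, 2.58, 2.88, 3.42 and 2.66 CPM in DS and 10.4, 14.8, 14.5, 20.7 and 13.9 CPM in C6, a 5.11-fold rise (log2 change 2.35, SE 0.18, adjusted p = 3.90e-07). ABI5 was 1.61, 2.14, 2.14, 2.51 and 1.5 CPM in DS and 6.26, 7.12, 5.87, 5.27 and 6.02 CPM in C6, a 3.10-fold rise (1.63, SE 0.17, adjusted p = 4.62e-06). Neither gene's ranges overlapped, and both stayed called under each scaling. The other 2 members called higher were LDAP3, a lipid droplet-associated protein (2.41), and the protein kinase SRK2F, whose log2 change of 2.88 was 1.82 without C6 library 3. ABF3, another ABA-response factor, had a log2 change of 0.41 and RD22 one of -0.32, and neither passed the adjusted p.

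Gibberellin genes rose on the side of synthesis and on that of inactivation. Of 5 tested gibberellin genes, 4 were called higher, beside 26.5% of all contigs, and none lower (median 2.94). GA20OX3, which makes precursors of the active hormone, was 0.157, 0.0486, 0.184, 0.285 and 0.188 CPM in DS and 3.50, 6.55, 8.81, 5.90 and 5.25 CPM in C6 (34.5-fold, log2 change 5.11, SE 0.36, adjusted p = 1.95e-07). GA20OX2, of the same enzyme family, rose 7.67-fold (2.94, SE 0.50). GA2OX6, which inactivates gibberellins, was 1.84 to 3.04 CPM in DS and 15.4 to 27.0 in C6 (8.54-fold, 3.09, SE 0.20, adjusted p = 8.77e-08). For GA20OX3 and GA2OX6 every imbibed library stood above every dry one. NPF6.3, a nitrate transporter that the study treats as a gibberellin transporter, rose from 0.107 ± 0.0901 to 0.617 ± 0.298 CPM (2.63, SE 0.61).

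**Figure D4:**
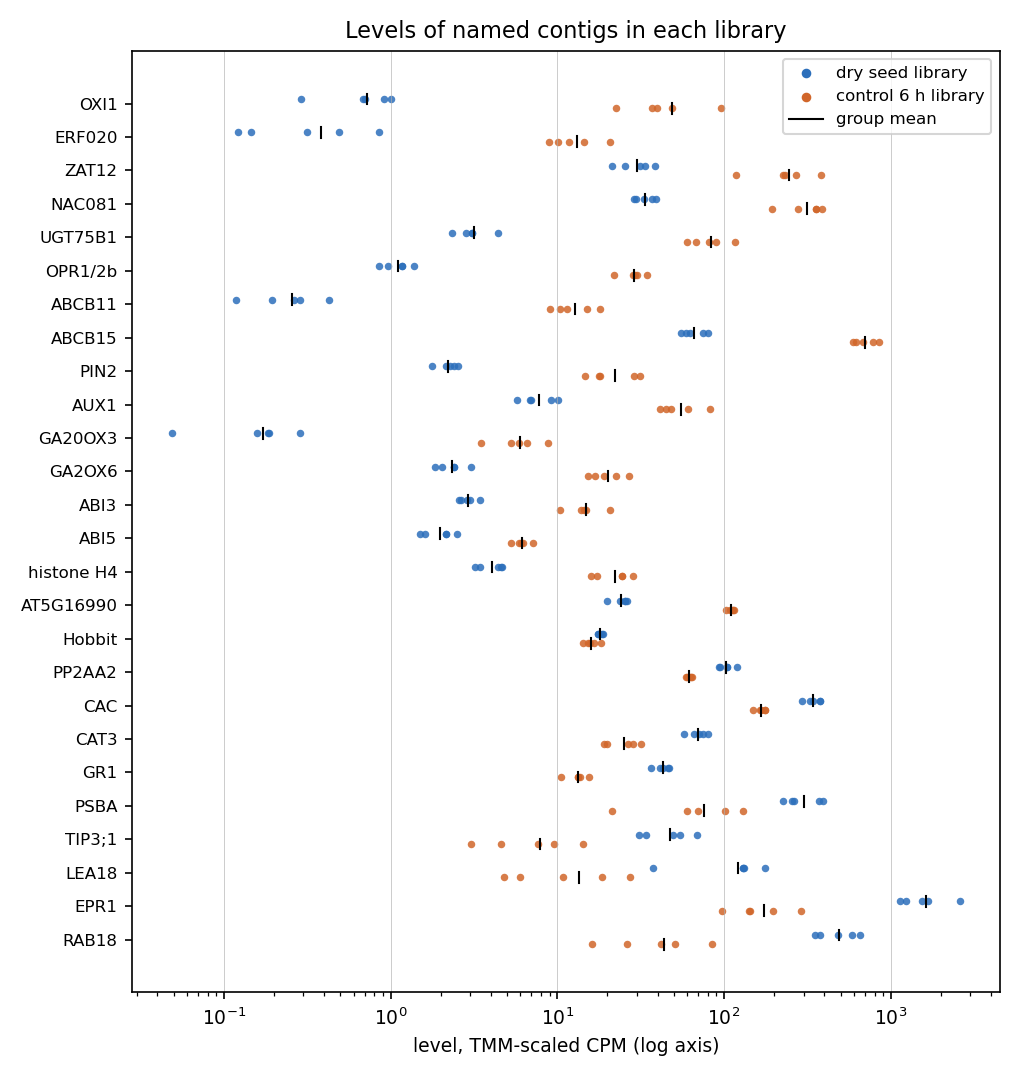
Level of 26 named contigs in TMM-scaled CPM (log axis), with 1 point for each library (blue dry seed, orange control 6 h) and a black bar at each group mean. The rises reach from 3.10-fold for ABI5 to 66.7-fold for OXI1, the reference contig Hobbit overlaps between the groups, and RAB18 at the foot of the plot fell 11.2-fold.

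Auxin genes formed the longest list and mostly rose. Of 30 tested, 18 were called higher, beside 26.5% of all contigs, and 1 lower, with a median log2 change of 1.25 against 0.04 overall. The count higher ranged from 16 to 24 over the scalings. ABCB11, an auxin transporter of the ABC family, was 0.118 to 0.429 CPM in DS and 8.98 to 18.0 in C6 (50.6-fold, log2 change 5.66, SE 0.32). The root efflux carrier PIN2 was 1.77, 2.53, 2.14, 2.40 and 2.29 CPM in DS and 17.9, 14.6, 17.7, 28.98 and 31.4 CPM in C6 (3.31, SE 0.24, adjusted p = 2.28e-07), and a second PIN2 contig rose by 2.91. The influx carrier AUX1 was 5.74 to 10.1 CPM in DS and 41.3 to 82.2 in C6 (2.83, SE 0.22). ABCB4 (3.27) and SAUR27, a small auxin-induced protein (3.23, or 3.86 without DS library 5), followed. PIN family members did not move as one: contigs PIN3a and PIN3b rose by 2.79 and 2.73 and PIN1a by 1.08, while PIN4 and PIN1b had log2 changes of -0.49 and -0.69 within 2-fold. The call lower was ARF18, an auxin response factor (-1.17), which was not called under library size, library size without the top 100, or the references.

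Enzymes that attach sugars to small molecules were among the steepest risers. All 10 contigs of UDP-glucosyltransferases passed the filter, 9 were called higher, beside 26.5% of all contigs, and none lower, and the median log2 change was 3.45. UGT75B1 was 3.07, 4.42, 2.33, 2.85 and 3.08 CPM in DS and 68.2, 116, 60.3, 81.7 and 89.2 CPM in C6, a 26.3-fold rise (log2 change 4.72, SE 0.23, adjusted p = 1.56e-08). UGT73B5a rose by 4.87 and UGT73B5b by 4.4, both from about 1 CPM or less in the dry seed. UGT74E2 (4.02) and UGT74E1 (3.60) followed, and UGT73B2 alone stayed within 2-fold (0.70). The seeds had received no MyA. Of 13 tested contigs of genes that the study places in the micropylar endosperm, the tissue that covers the radicle tip, 11 were called higher, beside 26.5% of all contigs, and none lower (median 2.72) under TMM and each other scaling; 8 of these 11 are the glucosyltransferase contigs already counted, 3 of them of UGT74E2 alone.

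The other detoxification families rose in part. Among 7 tested glutathione transferase contigs, 3 were called higher and none lower, beside 26.5% and 23.4% of all contigs, and the median log2 change was 0.48, also with GSTU25a at its bound given next. GSTU25a had no count in the 5 dry libraries and 155 counts over the 5 imbibed ones, 0.574 to 1.12 CPM, which is at least 30.5-fold higher than 3 counts over the dry group would give. GSTU8 rose by 4.56 (5.32 without DS library 5) and GSTU1 by 2.39, both from a few counts, while GSTU25b, GSTU19 and GSTU22 had log2 changes of 0.21 to 0.48 and did not pass. Contigs below the CPM filter were tested in a further edgeR fit that kept 39568 contigs with at least 5 counts in 4 of the 10 libraries, where 27.9% of contigs were called higher and 27.4% lower, 55.3% in all. There a second GSTU19 contig rose by 2.82 (adjusted p = 1.12e-05), and another (0.43) did not pass. GSTU15 had a log2 change of -0.91 and was called lower when TMM factors came from contigs outside the set. Of 6 tested cytochrome P450 contigs, 2 were called higher and 1 lower, beside 26.5% and 23.4% of all contigs: CYP81D4 (4.65, from 0.299 ± 0.170 to 7.48 ± 0.356 CPM) and CYP78A7 (2.69) rose and CYP75B1 fell by 1.22; the last was not called under library size or the references. Of 7 tested NAD(P) oxidoreductases, 6 were called higher and none lower (median 2.18, 5 or 6 higher under each scaling, beside 26.5% of all contigs under TMM), led by FAD-OXR (4.56) and AT3G03080 (3.70).

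The oxylipin list holds 9 contigs, of which 2 passed the filter and both were called higher, beside 26.5% of all contigs. Both encode OPR enzymes, which reduce 12-oxophytodienoic acid (OPDA) and related compounds. OPR1/2b was 1.18, 1.17, 0.857, 0.970 and 1.39 CPM in DS and 29.2, 30.2, 22.0, 28.5 and 34.8 CPM in C6, a 25.6-fold rise (log2 change 4.68, SE 0.17, adjusted p = 3.57e-09). OPR1/2a rose by 1.57 (SE 0.40). Of 5 others tested in the fit with lower counts, 3 were called higher and 1 lower, beside 27.9% and 27.4% of all contigs there. There a contig of OPR3, the reductase of the jasmonate pathway, rose by 2.82 (SE 0.40, adjusted p = 5.62e-05 by edgeR), from 0.118, 0.243, 0.857, 0.228 and 0.263 CPM in DS to 1.91, 2.25, 2.28, 2.25 and 1.76 CPM in C6. JAO2, a jasmonate oxidase, rose by 1.96, an OPR1/2 contig by 1.70, KAT2, a beta-oxidation thiolase, fell by 2.62, and a LOX1 contig (0.23) did not pass. The first OPR3 contig had counts in 1 dry and 1 imbibed library and was not tested.

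Of 12 tested members of the ascorbate, glutathione and ROS scavenging list, 6 were called lower, against 23.4% of all contigs, and 2 higher, with a median log2 change of -0.77; under library size the calls were 3 and 3, and under the arithmetic mean of the references 0 lower and 4 higher with a median of 0.13. Glutathione reductase GR1 was 46.2, 41.1, 46.8, 43.3 and 36.7 CPM in DS and 13.8, 15.5, 13.4, 10.5 and 13.4 CPM in C6 (log2 change -1.69, SE 0.12, adjusted p = 1.55e-07). Catalase CAT3 was 57.6 to 79.8 CPM in DS and 19.1 to 31.8 in C6 (-1.47, SE 0.15). Neither gene's libraries overlapped. The iron superoxide dismutase contig FSD1a fell by 1.71. The 2 members called higher regenerate ascorbate: DHAR2 (2.01) and MDAR2 (1.87). Class III peroxidases had 2 tested members, of which PER13 rose by 4.10 and PER45b (0.53) did not pass.

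Each listed family of stress-responsive transcription factors had more higher than lower calls under TMM and each other scaling. The calls under TMM, beside 26.5% higher of all contigs, were 4 higher of 5 tested ERF contigs (median log2 change 3.99), 3 of 4 WRKY and VQ contigs, 3 of 6 NAC contigs and 5 of 6 zinc finger, bHLH and MYB contigs, with 1 call lower, NAC002. ERF020 was 0.122 to 0.856 CPM in DS and 8.95 to 20.8 in C6 (5.08, SE 0.43). ERF5 rose by 4.52. NAC081 was 38.95, 28.97, 33.1, 36.9 and 29.5 CPM in DS and 390, 358, 278, 194 and 357 CPM in C6 (9.42-fold, 3.24, SE 0.19, adjusted p = 6.03e-08). The zinc finger factor ZAT12, a regulator of the response to reactive oxygen, was 31.5, 38.8, 25.7, 21.3 and 33.6 CPM in DS and 380, 269, 227, 119 and 232 CPM in C6 (8.12-fold, 3.02, SE 0.28). For both, every imbibed library lay above every dry one, and C6 library 4 was the lowest of its group. SIB2 (2.72), a VQ protein that binds WRKY factors, and bHLH62 (3.76) led their lists. NAC002 had a log2 change of -1.02 (SE 0.36). It was not called under library size or the references, or without DS library 4 or 5 or C6 library 3 or 4 (-0.80 to -0.96). A second ERF2 contig (1.15) was not called without C6 library 1 (0.72), with a replicate block (0.99) or in a single fit of all 6 groups (1.22). Nor was it called under TMM factors from contigs outside the set (1.00), where 3 of 5 ERF contigs were called higher.

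The largest rise of a named contig with counts in every dry library was that of OXI1, a protein kinase of oxidative signalling. It was 0.707, 0.292, 0.918, 0.685 and 1.01 CPM in DS and 96.0, 39.5, 37.0, 22.4 and 49.0 CPM in C6 (66.7-fold, log2 change 6.06, SE 0.46, adjusted p = 3.12e-07). The imbibed libraries differed among themselves by more than the dry ones. CML37, a calmodulin-like protein, rose by 5.59 (SE 0.83), and by 6.25 without DS library 5. KCS20, a condensing enzyme of very-long-chain fatty acids, rose by 5.38 (SE 0.30), and AT4G35690 by 4.95. The largest gains in level among named contigs that were called were those of ABCB15, an ABC transporter, from 66.5 ± 10.8 to 706 ± 107 CPM, NAC081, ZAT12, HSPRO2 (24.6 ± 4.87 to 157 ± 20.3 CPM) and the oxidoreductase AT5G16990 (24.2 ± 2.58 to 110 ± 4.61 CPM, SD, n = 5).

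**Figure D5:**
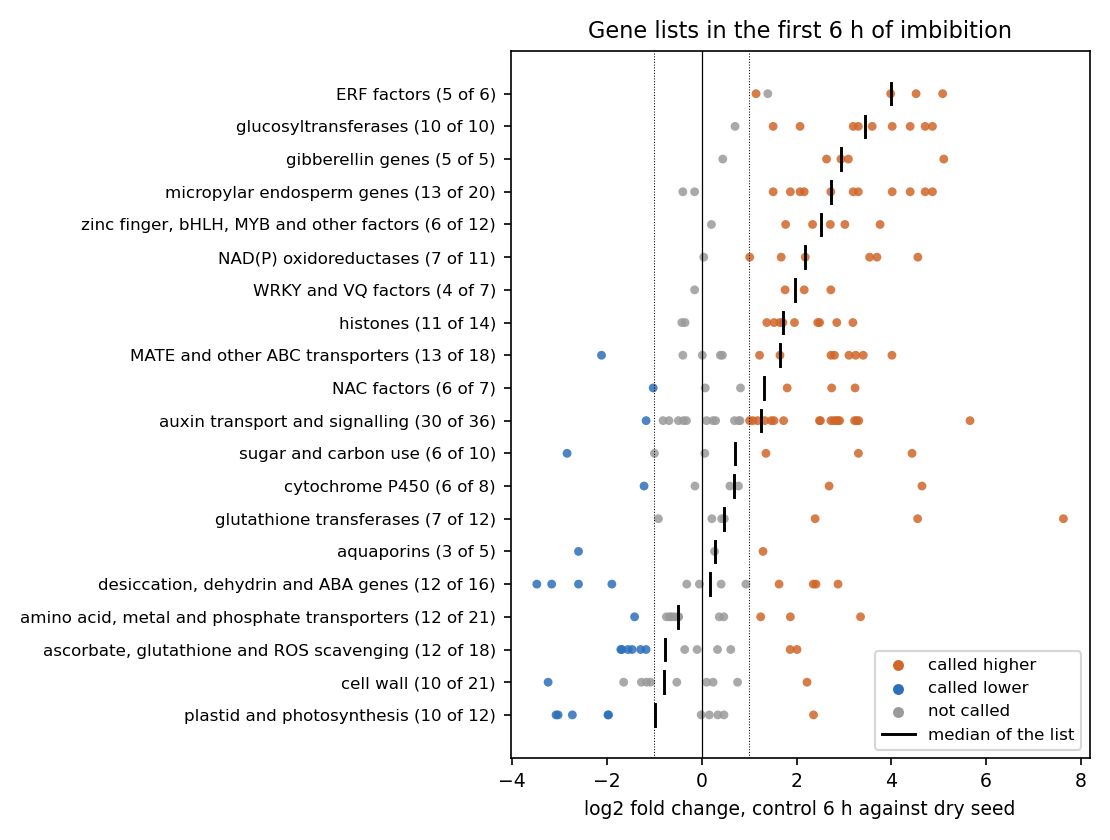
Log2 fold change of each tested member of 20 gene lists at 6 h against dry seed, orange for called higher, blue for called lower and grey for not called; the black bar is the list's median and the brackets give tested and listed contigs. The medians run from -0.99 for the plastid list to 3.99 for ERF factors, and the point at 7.63 is GSTU25a, which had no dry count.

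Histone genes, whose transcripts accompany DNA replication, rose almost throughout. Of 11 tested contigs, 9 were called higher, beside 26.5% of all contigs, and none lower, under each scaling, with a median of 1.71. A histone H4 contig was 3.46, 4.57, 4.41, 3.20 and 4.65 CPM in DS and 24.4, 28.6, 24.6, 17.4 and 15.9 CPM in C6 (log2 change 2.45, SE 0.19, adjusted p = 4.29e-07). Contigs of histone H3 (2.85) and H2A (2.49) rose likewise. The 2 that did not pass were H4 contigs, with -0.35 and -0.42. Only 1 of 13 ribosomal protein contigs passed the CPM filter, RPL6C (-0.65, not called). In the fit with lower counts, 10 others were tested, of which 1 was called higher and 4 lower. Of all contigs in that fit, 27.9% were called higher and 27.4% lower.

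Of 10 tested contigs of the plastid and photosynthesis list, 5 were called lower, beside 23.4% of all contigs, 1 was called higher and 4 neither, and all 5 called lower were in the set enriched in MyA 18 h library 5. PSBA, which encodes a core protein of photosystem II, was 224, 263, 371, 393 and 255 CPM in DS and 130, 69.6, 101, 60.04 and 21.2 CPM in C6 (log2 change -1.98, SE 0.39, adjusted p = 0.000603). The groups did not overlap. ATPI (-3.07) and RPOC1 (-3.03), also encoded in the plastid, and nuclear CP12-1 (-2.73) fell more. The 4 tested members outside the set that were not called, among them RBCS-1A for the small subunit of Rubisco, had log2 changes of -0.01 to 0.47. ELIP1, a light-stress protein of the thylakoid, was 2.63, 5.64, 5.20, 66.8 and 4.20 CPM in DS and 73.3 to 114 CPM in C6. DS library 4 stood apart: the log2 change was 2.36 (adjusted p = 0.0192) with it and 4.33 without it (adjusted p = 2.76e-07 by edgeR).

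Transporters and cell wall genes were mixed. Of 13 tested MATE and other ABC transporters, 8 were called higher, beside 26.5% of all contigs, and 1 lower (median log2 change 1.65), with DTX9b (4.01, or 5.04 without DS library 3), ABCB15 (3.41), ABCA7 (3.25) and DTX4 (3.11) in front. ABCG40, which imports ABA, rose by 2.80. Among 12 transporters of amino acids, metals and phosphate, UMAMIT30b (3.35), LHT1 (1.87) and a KUP9 contig (1.24) rose and UMAMIT25 (-1.42) fell, the last not called under library size (-0.90) or the references (-0.76 and -0.49), and the median of -0.49 turned positive under library size (0.02) and the references (0.15 and 0.43). Of 3 tested aquaporins, PIP2;8 of the plasma membrane rose by 1.29 and TIP3;1 fell. Of 6 contigs of sugar and carbon use, HXK3, a hexokinase, rose by 3.31 and GDH2, a glutamate dehydrogenase, by 1.35, and CWINV1, a cell wall invertase, had 2 counts in DS and 89 in C6, a ratio of 26.3 (95% counting interval 7.07 to 221). SDH3-1, a subunit of succinate dehydrogenase and a member of the set, fell by 2.84. Of 10 tested cell wall contigs, 1 was called in each direction, beside 26.5% higher and 23.4% lower of all contigs. Their median was -0.80, or 0.01 under the arithmetic mean of the references. UXS6, an enzyme of UDP-xylose synthesis, rose by 2.22. EPR1, an extensin-like protein known from the endosperm of Arabidopsis, was 1670, 1545, 1139, 1227 and 2615 CPM in DS and 143, 97.2, 141, 197 and 288 CPM in C6, a 9.46-fold fall (-3.24, SE 0.33, adjusted p = 3.34e-06) without overlap.

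The largest falls among named contigs have to be read library by library. TCTP1, a translationally controlled tumour protein, had the steepest fitted fall, of 7.13 on the log2 scale. Its level was 21.7, 193, 95.9, 33700 and 62.5 CPM in DS and 61.8, 40.8, 45.8, 79.5 and 15.1 CPM in C6. The difference rests on DS library 4: without it the log2 change was -0.89 and was not called (adjusted p = 0.176 by edgeR). AT3G04320 fell by 2.95, and by 1.98 without DS library 3. Falls without overlap of the groups included those of AT5G26280 (7.63 to 18.43 CPM in DS, 0.522 to 1.70 in C6, -3.56, SE 0.35), RAB18, EPR1, BIC2, an inhibitor of cryptochromes (-3.21, in the set), and SAM2, an S-adenosylmethionine synthetase (-2.90, SE 0.26). The study's lists also hold 5 contigs without a gene name among the largest falls or losses of level, all in the set. For 4 of them DS library 2 stood above the rest, in the extreme case at 11380 CPM against 5.27 to 10.2 CPM in the other dry libraries, where the log2 change was -10.01 with that library and -1.78 without it. The log2 changes of the other 3 were -2.88, -3.32 and -4.44 with DS library 2 and -2.23, -2.30 and -2.12 without it.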

How the data were processed

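RNA from whole seeds was sequenced by the authors as directional poly(A) libraries with paired 150-bp reads. They assembled the contigs (minimum length 200 bp), mapped reads with BWA and counted them with HTSeq (versions not given in the sources used here); the deposited values are raw counts per contig, not normalised. Columns were matched to samples by name, and 0 columns were left unused. The members and gene lists were chosen with earlier results of these data known.

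Contigs with at least 5 CPM in at least 4 of 29 libraries (all but MyA 18 h library 5) were tested in DS and C6 alone with edgeR 4.0.16 (TMM, glmQLFit, glmQLFTest; limma 3.58.1, R 4.3.3), after checks on simulated data. Calls needed a Benjamini-Hochberg adjusted p under 0.05 over all tested contigs and an absolute log2 change over 1. SE was computed back from the test, as the absolute log2 change divided by the square root of the quasi-likelihood F statistic. Concentration measures were compared by exact permutation over libraries (252 arrangements). No 2 libraries were identical. Alternatives were DESeq2 1.42.0, other scalings, filters and thresholds, a replicate block, a single fit of all 6 groups, and leaving out each library. At this depth a contig with 0 counts in DS may hold up to 3 counts over the group; this floor and the counting interval cover counting error only.

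Contigs were named by this rule: per list, the called members with the largest change (at most 5 with values); the 15 largest rises and 15 largest falls of named contigs; ABI3, ABI5, RAB18, LEA18, TIP3;1, GA20OX3, GA2OX6, OPR3 and the 3 references; the 2 largest gains and 2 largest losses of level among contigs without a name; and the 5 largest gains and losses among named contigs. PIN1a, PIN1b, PIN3a, PIN3b, PIN4, AUX1, CAT3, ABF3, RD22 and members that were not called were added after their values were seen. No contig sequences were used here.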

Additional observations from a re-analysis of the deposited data

Results flagged for a closer look

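In 5 of 96 groups of 5 libraries that were examined (the totals, the concentration measures and 37 contigs), 1 library lay far from the other 4. Chance alone gives about 1 in 20. The 37 contigs leave out others named above in which a single library stood apart. Among those left out are AT3G04320, SRK2F and the contigs without a gene name that were high in DS library 2. The 5 of 96 is thus no rate over all named contigs. The total of C6 library 2 was 26800000 counts, and the other C6 totals were 30600000 to 31700000. TCTP1 stood at 33700 CPM in DS library 4 and at 21.7 to 193 CPM in the other dry libraries. ELIP1 stood at 66.8 CPM in the same library and at 2.63 to 5.64 CPM in the others. The OPR3 contig that rose stood at 0.857 CPM in DS library 3 and at 0.118 to 0.263 CPM in the other dry libraries. CYP81D4 was 6.86 CPM in C6 library 2 and 7.49 to 7.74 CPM in the other C6 libraries.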

How the results depend on the processing

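No called log2 change of a named contig changed sign; Hobbit and PP2AA2, not called, did so under some scalings. TMM from contigs outside the set turned the balance of calls and the median, and library size or the references turned the class from 100 to 1000 CPM and the medians of the antioxidant, cell wall, amino acid and metal transporter, reference and ribosomal lists. The main values were 5869 higher and 5195 lower calls, 53.0% higher, and a median log2 change of 0.0423. DESeq2 gave 51.6% and 0.00561, RLE factors 51.6% and 0.00558, and upper-quartile factors a median of 0.0637. Library size gave 3442 lower, 71.1% and 0.558; the 3 references 9271 higher, 3133 lower, 74.7% and 0.692; library size without the top 100 gave 62.1% and 0.276. With 5 counts as the filter there were 11038 higher and 10846 lower (50.4%, 0.019), with no filter 11912 and 11818 (50.2%, -0.00332), and with 5 CPM in 4 of the 10 libraries 54.4% and 0.0551. A single fit of all 6 groups gave 56.0% and 0.118. Without a fold threshold there were 9191 and 8550 (51.8%), and over a log2 change of 2, 2674 and 1577 (62.9%). Without the contigs enriched in MyA 18 h library 5, refitted, the share was 57.0% and the median 0.0582. Scalings chosen after seeing the data were TMM from contigs outside that set (47.1%, -0.11) and the arithmetic mean of the references (10812 higher, 2390 lower, 81.9%, 0.959).

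Leaving out each library in turn gave 5790 to 6110 higher calls, 4956 to 5340 lower calls, shares of 52.7% to 54.8% and medians of 0.0332 to 0.0917. Same-numbered DS and C6 libraries deviated together for some numbers only, with correlations of -0.139 to 0.664, 2 of 5 over 0.1. Of the libraries, 2 C6 and 3 DS correlated best with their own number. The labels state no pairing, and the main fit took none, though these values do not exclude it. With the replicate block, 5831 contigs were higher and 5454 lower (51.7% higher).

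Of the single-contig values under alternatives, 2815 kept their call, 72 lost it in the same direction and 2 gained it, mostly under the 4-fold threshold or for CAC and NAC002. With the block, TCTP1 (-1.95), the second ERF2 contig (0.99) and 1 contig without a gene name (-2.91) were not called. DESeq2 gave no adjusted p for 10 tested contigs, 9 of them called by edgeR, TCTP1 among them, and these were not counted as lost. The shares of counts on the most abundant contigs kept their direction and their side of the threshold under their alternatives. So did the numbers of contigs holding 50% and 90% of the counts. The number of contigs with a count lost its side of the threshold in the expected Poisson draw at equal depth (exact permutation p = 0.135). Depth limits contigs of a few counts, such as GSTU25a, GSTU1 and CWINV1, to wide errors.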

Other observations

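Levels of named contigs in 2 further groups, scaled over 29 libraries, are given side by side without a test. In control seeds at 12 h RAB18 was 6.33 ± 1.19 CPM (SD, n = 5), below the 51.8 ± 30.6 CPM of C6 on this scale, and TIP3;1 was 1.5 ± 0.684 against 9.25 ± 5.08. Some rises had largely gone by then: UGT75B1 was 98.6 ± 25.7 CPM in C6 and 9.56 ± 4.09 at 12 h, OPR1/2b 34.3 ± 5.71 and 2.41 ± 0.923, ZAT12 290 ± 108 and 23.1 ± 8.42, and ABI5 7.24 ± 0.741 and 1.59 ± 0.215. Others were higher still: PIN2 was 26.3 ± 9.30 CPM in C6 and 53.4 ± 10.1 at 12 h, AUX1 65.9 ± 20.6 and 128 ± 20.3, and GA20OX3 7.12 ± 2.27 and 10.2 ± 1.66. In seeds imbibed for 6 h with MyA, RAB18 was 57.3 ± 23.5 CPM, UGT75B1 93.1 ± 11.9, OPR1/2b 42.0 ± 13.4 and PIN2 22.1 ± 5.33.

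Contigs present almost in a single library were unevenly spread. DS library 2 held 301 contigs at 10 times or more the median of the other dry libraries, with 2.99% of its counts, and DS library 4 held 12 such contigs with 2.71% of its counts. The other 8 libraries held 2 to 21 such contigs, with at most 0.0514% of their counts. Of the 301 contigs, 14 passed the filter and 12 were called lower at 6 h, beside 23.4% of all tested contigs. They were chosen for a high level in a dry library of this comparison, which favours lower calls, so this count is no test.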
